A study of Mus musculus with 50 samples.

Results

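The transcripts described here mark adult neurogenesis and cell division in the mouse hippocampus: Sox11, Sox4, Neurod1, Eomes, Mki67, Top2a, Ccnd2, Ccnd1, Igfbpl1 and Pcna. They were followed on the Agilent platform, on which 10 two-color arrays compared the hippocampi of 5 wild-type (WT) with those of 5 transgenic (TG) mice. A probe was taken as a member when the RefSeq accession it was designed on, or a symbol in parentheses in its description, named one of the 10 genes. This gave 16 of 41174 probes, which cover 9 of the 10 genes among 16831 genes named on the platform. No probe carried the symbol Mki67. The mice were males of the C57/BL6j strain, and both hippocampi of each animal were dissected. The TG mice overexpressed DCLK-short, a splice variant of doublecortin-like kinase that makes the kinase constitutively active (the labels spell it DLCK), and the WT mice carried no transgene. The age of the mice and the promoter of the transgene are not given in the sources used here. Each mouse was measured on 2 arrays, once in Cy3 and once in Cy5, and every array held 1 WT and 1 TG sample. Mice are named by the numbers in the labels, WT1 and WT3 to WT6, and TG1 to TG5.

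All directions on Agilent are given as the labels of the arrays state them. They are opposite to those the study gives. The sign of every Agilent value below turns over if the arrays labelled 1 to 5 (TG in Cy5) are exchanged with those labelled 6 to 10 (TG in Cy3), while its size does not change in the fit over arrays. The exchange was compared with the labels on the log2 ratios of all probes, after the mean and the dye effect of each probe were removed. Under the labels, the 10 pairs of arrays that share a mouse had a mean correlation of 0.098 (range -0.53 to 0.80), and 6 of these 10 were above 0. After the exchange the mean was 0.285 (range -0.27 to 0.80), and 8 of 10 were above 0. These correlations are across probes, which are not independent replicates, and which of the assignments is correct cannot be told from them alone.

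New neurons are added to the dentate gyrus throughout life. Radial glia-like stem cells give rise to dividing intermediate progenitors that carry the transcription factor Eomes (Tbr2), and these give rise to neuroblasts, in which Neurod1, Sox4 and Sox11 promote neuronal fate and which then mature into granule cells. Division itself is marked by cyclins D1 and D2, which drive entry into the cell cycle with Cdk4 and Cdk6, by Pcna, the sliding clamp of DNA replication, and by Top2a and Ki-67 (Mki67), which act on mitotic chromosomes. Igfbpl1 encodes an insulin-like growth factor binding protein-like protein that is found in immature neurons. Dividing cells and neuroblasts are a small minority of all hippocampal cells. In whole tissue, fewer cells of a type and less RNA per cell cannot be told apart.

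Eomes, Top2a and 1 of the 4 Sox11 probes were close to the limit of detection, while Pcna and the D-type cyclins were above it. The limit was the signal under which 95% of the 314 negative controls of a channel fell, and a probe was present if it was above this limit in Cy3 and in Cy5 on each of the 10 arrays. Of the 16 probes, 13 were present, for 8 genes, and of all 41174 probes 33790 were present. The strongest signals were those of Pcna and of Ccnd2 probe A_52_P53906, with medians over the 20 channels of 14.9 and 14.8 times that limit. Ccnd1 (7.12 times) and Neurod1 (6.10 times) followed. The single Eomes probe reached a median of only 1.11 times the limit and was present on 9 of 10 arrays. Top2a probe A_51_P252157 had a median of 1.01 times and was present on 3 arrays. The other Top2a probe (A_52_P415299) was present on all 10 arrays, at 1.23 times. Sox11 probe A_52_P608516 was present on 5 arrays, at 1.09 times. Levels of different probes depend on the probe and are not compared as transcript amounts. Which cells of the tissue gave the signals of the member probes, dividing or not, was not tested.

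**Figure D1:**
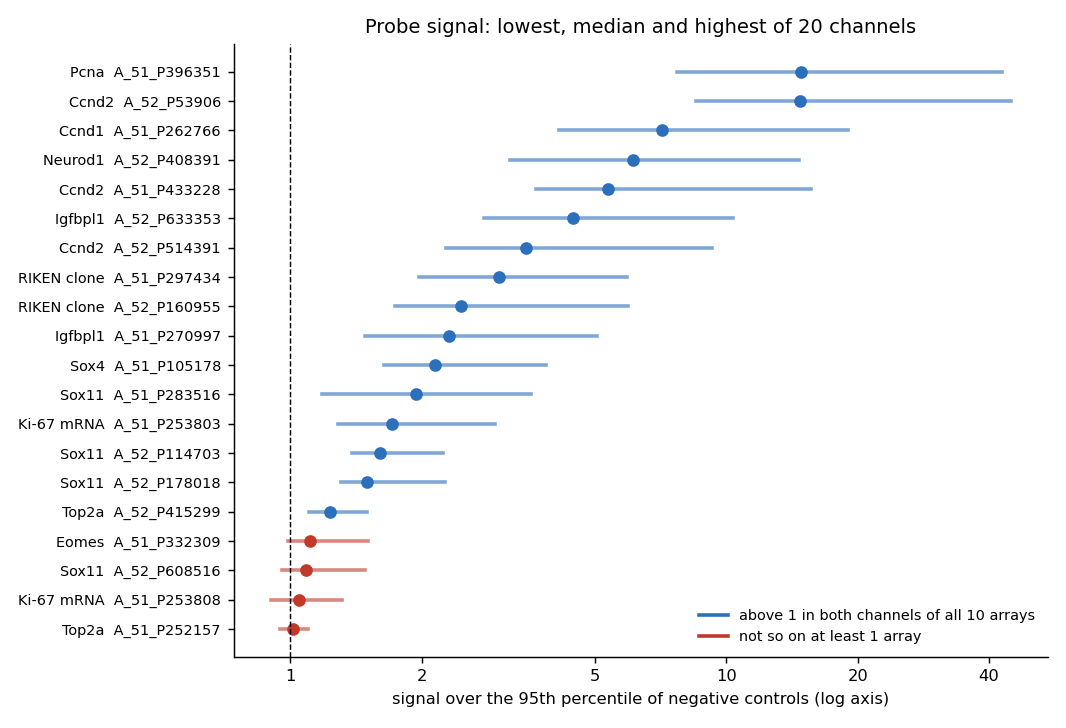
Signal of each member probe, and of 4 further probes outside the rule, as a multiple of the detection limit of the same channel, the level below which 95% of negative controls fell (log axis). Points are medians over 20 channels and lines run from the lowest to the highest channel. The Eomes probe, 1 of the 2 Top2a probes and 1 of the 4 Sox11 probes reach down to the negative controls, and Pcna and Ccnd2 probe A_52_P53906 stand highest at 14.9 and 14.8 times.

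Ccnd2, Ccnd1 and Igfbpl1 were the members with a probe past a false discovery rate (FDR) of 0.1 in the fit over arrays. None of their probes passed with 1 value per mouse, a fit that drops the pairing of samples within arrays. Ccnd2, the cyclin on which dividing progenitors of the adult dentate gyrus are known to depend, was measured with 3 probes. For probe A_52_P514391, the normalized log2 intensities in the WT mice were 7.54 (WT1), 7.59 (WT3), 7.53 (WT4), 7.18 (WT5) and 7.45 (WT6). In the TG mice they were 7.96 (TG1), 8.22 (TG2), 7.76 (TG3), 7.85 (TG4) and 7.76 (TG5). All 5 TG mice lay above all 5 WT mice, with means of 7.91 ± 0.192 and 7.46 ± 0.165 (SD, n = 5). Such a separation in this direction was seen in 0.937% of all probes, and after the exchange, when the TG mice all lay below, in 0.755%. The log2 ratio of TG over WT was above 0 on all 10 arrays, as it was for 0.979% of all probes, with a lowest value of 0.11, a median of 0.37 and a highest value of 1.04. Its mean was 0.45 ± 0.10 (SE), a fold of 1.37, with an FDR of 0.0353 over all probes in limma. An exact two-sided permutation test over the 10 mice gave p = 0.0079, the smallest value that 5 against 5 mice allow. The test shuffles the mice without regard to the arrays they share. This and the exact p values below were not adjusted for the number of probes. In limma, 1 value per mouse gave an FDR of 0.24.

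The other Ccnd2 probes showed smaller differences. Probe A_51_P433228 had log2 ratios from -0.15 to 0.33 with a median of 0.16, and only arrays 1 and 9, both of mouse TG4 as labelled, were below 0. Its mean of 0.15 ± 0.05 (SE) passed the limit with an FDR of 0.09. Probe A_52_P53906, the brightest of the 3, had log2 ratios of -0.47 and -0.29 on arrays 1 and 9 and of 0.13 to 0.42 on the other 8 arrays. Its mean was 0.14 ± 0.08 (SE) with an FDR of 0.421. The level of this probe was 9.26 in mouse TG4, below the 5 WT mice (9.55 to 9.64), while TG1, TG2, TG3 and TG5 lay above them (9.74 to 9.93). After the exchange the value of 9.26 belongs to WT5, the other WT mice were at 9.74 to 9.89 and the TG mice at 9.42 to 9.68. Without arrays 1 and 9 the log2 ratio was 0.27 with an FDR of 0.021, and that of A_51_P433228 was 0.21 with an FDR of 0.0268. With the 3 probes averaged, Ccnd2 was 0.25 ± 0.06 (SE) higher on the log2 scale in TG as labelled, with an FDR of 0.0522 over all genes.

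The 3 Ccnd2 probes were designed on the same RefSeq transcript and map to the reverse strand of chromosome 6 at starts 127802883 (A_52_P514391), 127812482 (A_51_P433228) and 127821991 (A_52_P53906) in the coordinates of the array files, whose genome build is not named. A_52_P514391 therefore lies nearest the 3′ end of the gene, 9599 bases from the next probe and 19108 bases from the last. In GRCm38.p6, RefSeq places Ccnd2 at chr6:127125162-127152188. Whether a probe lies in a coding exon was not determined here. The probe nearest the 3′ end showed the largest of the 3 log2 ratios, which were 0.45, 0.15 and 0.14 in that order.

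Ccnd1, the other D-type cyclin with a member probe (A_51_P262766), had levels of 8.66, 8.28, 8.54, 8.39 and 8.64 in WT1, WT3, WT4, WT5 and WT6. In TG1 to TG5 they were 8.79, 8.74, 8.59, 8.73 and 8.56. The groups overlapped, with WT1 and WT6 above TG3 and TG5. The log2 ratio was above 0 on 9 of 10 arrays, from -0.06 to 0.48 with a median of 0.21, and its mean of 0.18 ± 0.05 (SE) had an FDR of 0.074. With 1 value per mouse the FDR was 0.614, and the exact permutation test gave p = 0.0794. The gene lies at chr7:144929931-144939831 in GRCm38.p6.

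**Figure D2:**
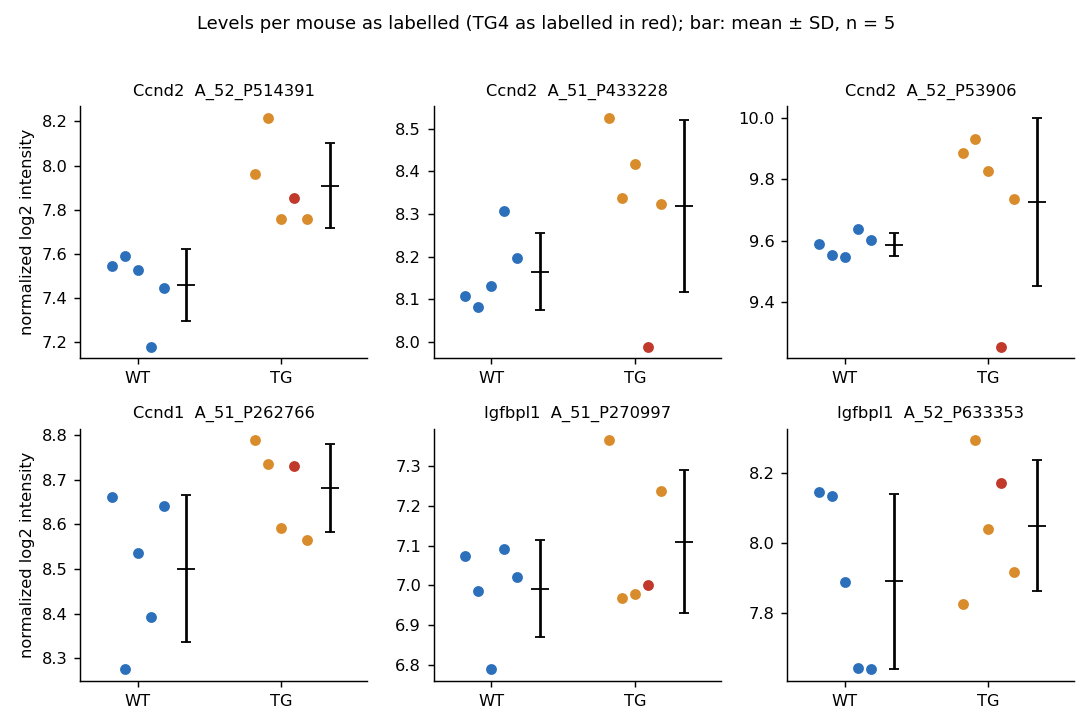
Normalized log2 intensity of the Ccnd2, Ccnd1 and Igfbpl1 probes in each mouse as labelled (y axis, a separate range for each probe), with the mean ± SD of the 5 mice of a genotype beside the points. WT and TG do not overlap for Ccnd2 probe A_52_P514391 alone, and mouse TG4 as labelled (red) is the lowest of all mice for the other 2 Ccnd2 probes.

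Igfbpl1 was measured with 2 probes that lie 1178 bases apart. For A_51_P270997 the log2 ratio was above 0 on all 10 arrays, from 0.01 to 0.20 with a median of 0.13. The mean of 0.12 ± 0.03 (SE), a fold of 1.09, had an FDR of 0.0417. Its levels in single mice overlapped, with 6.79 to 7.09 in WT and 6.97 to 7.37 in TG, and the FDR with 1 value per mouse was 0.987. Probe A_52_P633353 was above 0 on 8 of 10 arrays, from -0.17 to 0.46, and its mean of 0.16 ± 0.06 (SE) missed the limit with an FDR of 0.147. With both probes averaged the log2 ratio was 0.14 ± 0.03 (SE), with an FDR of 0.0473 over all genes. RefSeq places the gene at chr4:45809507-45826827.

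Among the transcription factors of neuroblasts, Sox11 and Sox4, which act together on genes of neuronal differentiation, passed the test with no member probe. Sox11 had 4 probes, with log2 ratios of 0.13 ± 0.11 (A_51_P283516, FDR 0.631), 0.08 ± 0.03 (A_52_P178018, FDR 0.124), 0.04 ± 0.04 (A_52_P114703, FDR 0.661) and -0.02 ± 0.03 (A_52_P608516, FDR 0.818), all ± SE over 10 arrays. A_51_P283516 varied most between arrays, from -0.53 to 0.55, and arrays 9 and 1 were the lowest. Its level as labelled was 6.17 in TG4 and 6.65 to 7.22 in the other TG mice, against 6.55 to 6.74 in WT. For A_52_P178018 the levels were 6.27 to 6.39 in WT and 6.36 to 6.49 in TG, and an exact permutation test over mice gave p = 0.0476, not adjusted for the number of probes. After the exchange the same exact test gave p = 0.127. The Sox4 probe had log2 ratios from -0.15 to 0.31 with a median of 0.08. Arrays 1 and 9 were again the 2 lowest, both at -0.15, and the mean of 0.07 ± 0.04 (SE) had an FDR of 0.42. Without these arrays it was 0.13 with an FDR of 0.0979.

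A pair of probes outside the rule lies downstream of the Sox11 probes. They were designed on a RIKEN clone whose name the RefSeq gene table lists among the older names of Sox11, and they were singled out after their values were seen. Both map to the same strand of chromosome 12 as the Sox11 probes, and the nearer one (A_51_P297434) lies 2794 bases on the 3′ side of A_51_P283516. From the clone probe farthest on the 3′ side to the Sox11 probe farthest on the 5′ side the starts span 7409 bases, and the length of Sox11 in RefSeq (chr12:27334268-27342718 in GRCm38.p6) is 8451 bases. A_51_P297434 was 0.33 ± 0.06 (SE) higher in TG as labelled, with an FDR of 0.0254, and A_52_P160955 was 0.29 ± 0.06 (SE) higher, with an FDR of 0.0286. The levels of A_51_P297434 were 7.05 to 7.33 in WT and 7.43 to 7.73 in TG as labelled and did not overlap, while after the exchange, at 7.37 to 7.79 and 6.87 to 7.45, they did. Those of A_52_P160955 overlapped as labelled, with 6.79 to 7.07 in WT and 7.05 to 7.41 in TG, and did not after the exchange, with 7.15 to 7.41 and 6.86 to 7.14. With 1 value per mouse the FDRs were 0.206 and 0.312. The difference between these probes and the Sox11 probes was not tested.

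**Figure D3:**
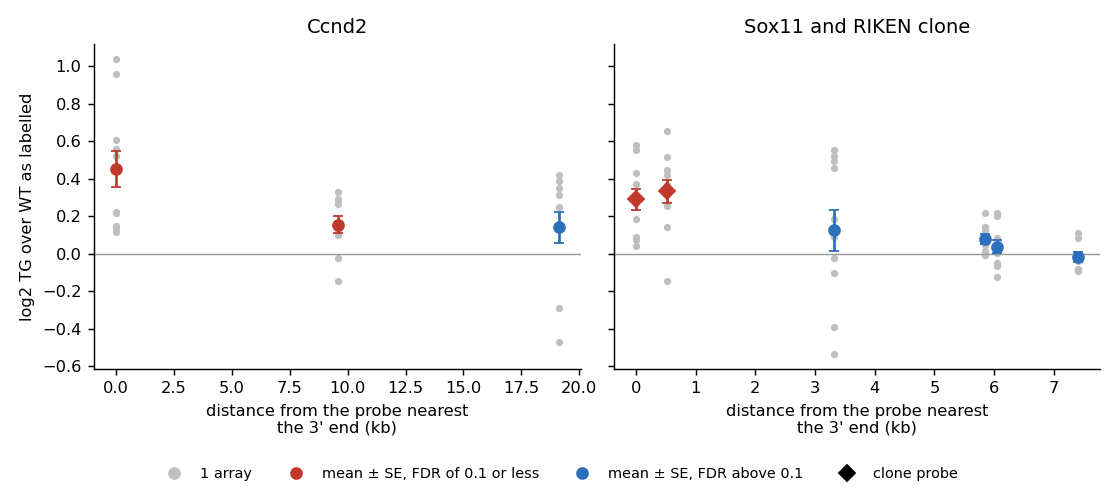
Log2 ratio of TG over WT as labelled (y axis) for the probes of Ccnd2 (left) and of Sox11 and the RIKEN clone (right), against the distance in kb from the probe nearest the 3′ end (x axis). Gray points are single arrays, colored points the mean ± SE of 10 arrays (red for an FDR of 0.1 or less, blue above), and diamonds the clone probes. The probes nearest the 3′ end have the highest means in both panels, 0.45 for Ccnd2 and 0.29 and 0.33 for the clone.

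Neurod1, a factor that drives the maturation of granule cells, was the member with the lowest log2 ratio, and it did not pass the test. Its values ran from -0.82 to 0.35 with a median of -0.07, and 8 of 10 arrays were below 0. The mean was -0.14 ± 0.09 (SE) with an FDR of 0.427. Without arrays 1 and 9, of which array 9 gave the value of -0.82, the mean was -0.05 with an FDR of 0.848. The levels were 8.33 to 8.51 in WT and 7.97 to 8.55 in TG as labelled, where the lowest is TG4, and after the exchange 7.97 to 8.53 in WT, where the lowest is WT5, and 8.25 to 8.56 in TG. Eomes, the marker of intermediate progenitors, had log2 ratios from -0.05 to 0.10, a mean of 0.04 ± 0.02 (SE) and an FDR of 0.41, at a signal that reached the negative controls.

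The markers of replication and mitosis showed no difference that passed the test. Pcna had a log2 ratio of -0.05 ± 0.05 (SE) and an FDR of 0.665, with arrays from -0.31 to 0.25 and levels of 9.22 to 10.002 in WT and 9.33 to 9.82 in TG. The scanner software marked its spot as an outlier on 2 of the 10 arrays. The 2 Top2a probes had log2 ratios of 0.02 ± 0.04 (A_51_P252157, FDR 0.826) and -0.00 ± 0.02 (A_52_P415299, FDR 0.979), both ± SE. For Mki67, 2 probes outside the rule are described as Ki-67 mRNA. A_51_P253803 was present on all 10 arrays at a median of 1.71 times the limit, with a log2 ratio of 0.07 ± 0.03 (SE) and an FDR of 0.182, and 9 of 10 arrays were above 0. A_51_P253808 was present on 4 arrays, with -0.02 ± 0.05 (SE) and an FDR of 0.89.

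Promoters of dividing-cell genes are known for CCAAT boxes, bound by NF-Y, and for E2F sites. RefSeq promoters (250 bases before to 50 after the start of the gene, GRCm38.p6) were held for 7 of the 10 members, and those of Ccnd2, Ccnd1 and Igfbpl1 were not used here. The word CCAAT, on either strand, was in 6 of these 7 (in all but Neurod1) and in 37.4% of 32851 promoters. The E2F word TTTNNCGC, on either strand and with N any base, was in none of the 7 and in 5.17% of all promoters. The promoters of Top2a and Mki67 are shown as those of the 2 mitotic markers, whose probes did not pass the test here. Capitals mark CCAAT or its reverse complement ATTGG, of which Top2a (chr11:99024140-99024439, reverse strand) holds 6 and Mki67 (chr7:135716330-135716629, reverse strand) holds 3. A match is a description of the letters and not a sign of binding.
Top2a: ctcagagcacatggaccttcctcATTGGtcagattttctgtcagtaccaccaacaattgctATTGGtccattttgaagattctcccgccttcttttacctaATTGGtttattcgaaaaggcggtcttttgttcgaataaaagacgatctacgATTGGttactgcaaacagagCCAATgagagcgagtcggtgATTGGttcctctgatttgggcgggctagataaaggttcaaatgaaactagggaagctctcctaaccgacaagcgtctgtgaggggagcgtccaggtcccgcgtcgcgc
Mki67: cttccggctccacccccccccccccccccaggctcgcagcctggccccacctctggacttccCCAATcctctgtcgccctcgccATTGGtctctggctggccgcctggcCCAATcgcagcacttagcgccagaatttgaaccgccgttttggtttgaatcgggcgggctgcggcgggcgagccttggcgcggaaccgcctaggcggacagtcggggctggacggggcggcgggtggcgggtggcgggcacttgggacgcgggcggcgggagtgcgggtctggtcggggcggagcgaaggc

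**Figure D4:**
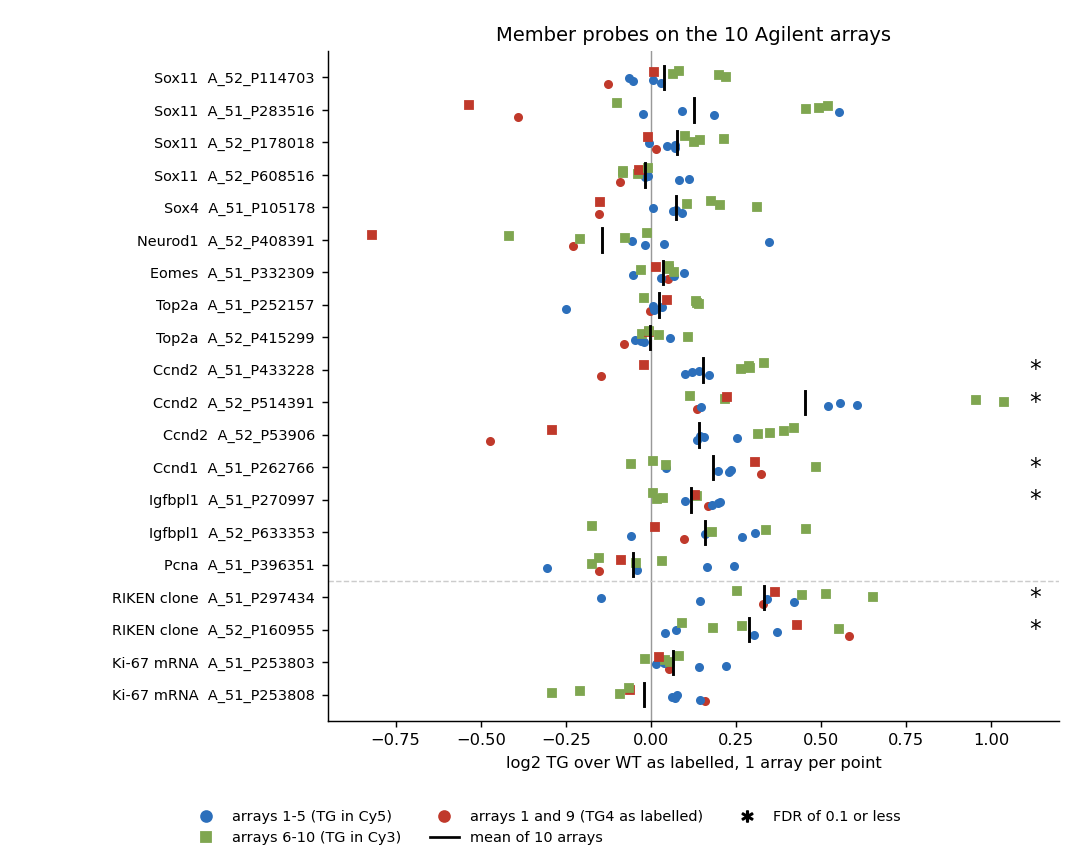
Log2 ratio of TG over WT as labelled (x axis) of each member probe on the 10 arrays, with 4 further probes outside the rule under the dashed line. Circles are arrays 1 to 5 and squares arrays 6 to 10, arrays 1 and 9 (mouse TG4 as labelled) are red, black bars are means, and stars mark an FDR of 0.1 or less. Member probes with a star number 4 of 16, all with means above 0, and for 4 member probes the 2 red points are the lowest.

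In all, 4 of the 16 member probes passed an FDR of 0.1 on Agilent, 2 for Ccnd2 and 1 each for Ccnd1 and Igfbpl1. All 4 were higher in TG as labelled. Of all probes, 7.42% passed, and 3.66% passed with higher values in TG as labelled. The median log2 ratio of the member probes was 0.08, with 12 of 16 above 0, and that of all probes was 0.00, with 52% above 0. These members were chosen with results of the arrays known, so the counts are descriptions. The arrays are not independent, since each mouse was on 2 of them. With 1 value per mouse 0.0583% of all probes passed in limma, and none of the 16 member probes did. This fit drops the pairing of WT and TG on an array. With 1 mean log ratio per WT mouse, which keeps it, 4 member probes and 1774 of all probes passed. There Igfbpl1 probe A_52_P633353 passed (FDR 0.0769) and Ccnd1 did not (FDR 0.142). Per TG mouse the counts were 2 and 2643. These means still share mice of the other genotype.

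Arrays 1 and 9 stood apart together. They share mouse TG4 as labelled and mouse WT5 after the exchange, so the genotype of this animal turns over with the assignment. The residuals of these arrays had a correlation of 0.80 across all probes. They were the 2 lowest of 10 for 4 of the 16 member probes and for 10.2% of all probes, and TG4 as labelled was the lowest TG mouse for 7 of 16 and for 24.8% of all. Without arrays 1 and 9, 4 member probes passed, namely the 3 of Ccnd2 and that of Sox4, while Ccnd1 (0.15, FDR 0.206) and Igfbpl1 probe A_51_P270997 (0.11, FDR 0.114) did not. Leaving out both arrays labelled for WT4, WT5, TG2 or TG3 left none, each with 8 arrays, and leaving out those of WT3, TG1 or TG5 left 1. All probes past the limit fell too, from 3055 to 282 (WT4), 825 (WT5), 1024 (TG2) and 1057 (TG3). They fell to 366 (WT3), 1272 (TG1), 812 (TG5) and 2015 (TG4, arrays 1 and 9). Leaving out array 2, 3, 4 or 6 alone left 2, with 1218, 1210, 2796 and 1117 of all probes.

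Genes whose log2 ratios followed those of Ccnd2 probe A_52_P514391 most closely over the 10 arrays were Sertad2, Zbtb38 and Micu3, with Pearson correlations of 0.948, 0.947 and 0.938 among 16830 other named genes. Their arrays share dyes and mice, and the correlations are descriptions. Micu3, a regulator of mitochondrial calcium uptake, was 0.55 ± 0.13 (SE) higher in TG as labelled, with an FDR of 0.047. Sertad2, at 0.14 ± 0.05 (FDR 0.132), and Zbtb38, at 0.24 ± 0.11 (FDR 0.262), both ± SE, did not pass.

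Other genes of these processes were taken from 7 lists, with the probes of a gene averaged. Of all genes, 4.05% were higher and 4.13% lower in TG as labelled. Among 21 genes of neuroblasts and immature neurons, 5 were higher and 0 lower, and the list median was 0.05 against 0.00 for all genes. Tubb3, a tubulin of neurons, was 0.39 ± 0.09 higher (FDR 0.0422), Dpysl3, a protein of growing axons, 0.32 ± 0.08 (FDR 0.0563), and Stmn1, which destabilizes microtubules, 0.26 ± 0.05 (FDR 0.0304), all ± SE on the log2 scale. Tubb2b and Cd24a were the other two. Dcx, the usual marker of neuroblasts, was at 0.02 ± 0.03 with an FDR of 0.781. The summed intensity of the list was 11823 to 12680 in the WT mice and 13578 to 14787 in the TG mice as labelled, and 13552 to 14787 and 11902 to 12680 after the exchange, without overlap in either. The 4 brightest genes, Stmn2, Tubb2b, Tubb3 and Stmn1, which mature neurons also express, made up 58.1% of the sum in WT and 89.1% of its difference as labelled. The sum of the other 17 genes was 4973 to 5387 in WT and 4196 to 5802 in TG and overlapped.

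Among 21 genes of radial glia-like stem cells, 3 were higher and 1 lower. Fabp7, a fatty acid binding protein of radial glia, was 0.80 ± 0.09 (SE) higher on all 10 arrays, with an FDR of 0.0035, but it was picked by the study on these samples and is not independent evidence. Its direction, as of all values on Agilent, turns over with the exchange and is opposite to the one the study gives. The study also lists Fabp7 as lower in TG on Applied Biosystems, Affymetrix and home-spotted LGTC arrays and by quantitative RT-PCR. On Illumina it lists no difference. The Agilent exchange does not touch these measures. Id1, an inhibitor of differentiation, was 0.23 ± 0.07 higher (FDR 0.0881), and Lpar1, a lysophosphatidic acid receptor, was at -0.17 ± 0.05 (FDR 0.0592). Among 18 niche signals, 1 was higher and 2 lower. Bdnf, a growth factor of neurons, was at -0.26 ± 0.05 (FDR 0.0204), the chemokine Cxcl12 at -0.16 ± 0.04 (FDR 0.0463) and Bmp4, which holds stem cells in quiescence, at 0.15 ± 0.03 (FDR 0.0388).

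Lists of the cell cycle held few genes past the limit. For G1 to S control, 1 of 16 measured genes was higher and 1 lower. Cdk4, the kinase partner of the D-type cyclins, was at 0.14 ± 0.04 (FDR 0.0754), and Rb1, the protein it inactivates, was at -0.08 ± 0.02 (FDR 0.055), below 0 on all 10 arrays. In DNA replication, 2 of 29 were higher and 0 lower, with Tyms, which makes thymidylate, at 0.08 ± 0.02 (FDR 0.0541) and Gmnn, the inhibitor of replication licensing, at 0.23 ± 0.06 (FDR 0.0601). In mitosis, 2 of 30 were higher and 0 lower. Cenpa, the histone of centromeres, was at 0.15 ± 0.03 (FDR 0.015) and was picked by the study on these samples, and its probe was not present on all arrays. By quantitative RT-PCR the study lists Cenpa as lower in TG. Cks2, a subunit of cyclin-dependent kinases, was at 0.14 ± 0.03 (FDR 0.0431). In mitosis, 8 of 30 genes had no present probe. Among 12 cell cycle brakes, 1 was higher and 1 lower, namely Cdkn2d, an inhibitor of Cdk4 and Cdk6, at 0.25 ± 0.06 (FDR 0.0401) and Tob1, an antiproliferative protein, at -0.23 ± 0.05 (FDR 0.0328).

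**Figure D5:**
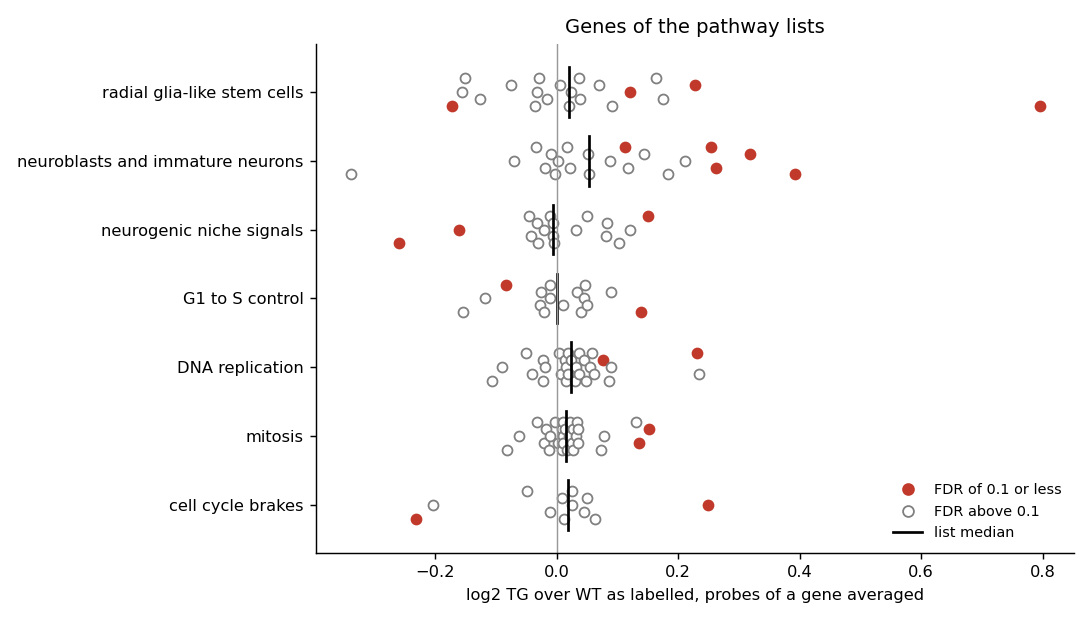
Log2 ratio of TG over WT as labelled (x axis), averaged over the probes of a gene, for the measured genes of 7 lists (1 point per gene, spread vertically for display). Filled points have an FDR of 0.1 or less over all genes and black bars are list medians. Neuroblasts and immature neurons hold 5 filled points, all above 0, and Fabp7 at 0.80 is the highest point.

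Markers of other hippocampal cells moved beside these values, and their part in them was not tested. The tissue held its defining markers, with all 8 markers of hippocampal neurons and all 5 of dentate granule cells present with at least 1 probe. Of the 8 neuron markers, 1 was higher (Nrgn, 0.50, FDR 0.0711), Spink8 (0.35, FDR 0.102) and Snap25 (-0.40, FDR 0.182) did not pass, and the sum was 18956 to 21608 in WT and 19275 to 21978 in TG. Prox1 and Gfap stand in 2 lists each. Of the 5 granule cell markers, C1ql2 was at -0.30 (FDR 0.0144) and Calb1 at 0.14 (FDR 0.0465), and the summed intensity was 2499 to 2733 in WT and 2440 to 2842 in TG. Of 5 oligodendrocyte markers, 1 was lower (Mbp, -0.51, FDR 0.084), and the sum was 9012 to 11871 in WT and 4042 to 9571 in TG. Of 5 endothelial markers, 1 was lower (Cldn5, -0.25, FDR 0.0384), with sums of 1303 to 1347 and 1013 to 1247 that did not overlap as labelled. After the exchange these sums were 1013 to 1278 in WT and 1277 to 1381 in TG and overlapped. Among 5 astrocyte markers 2 were higher, with sums of 1906 to 2082 in WT and 1955 to 2235 in TG. Among 5 microglial markers 1 was lower, with sums of 1475 to 1672 and 1449 to 1598. None of 5 oligodendrocyte precursor (1587 to 1754 and 1468 to 1724), 5 choroid plexus (655 to 1776 and 545 to 1781) or 3 ependymal markers (303 to 317 and 307 to 340) passed in either direction. Of the 4 Dlx genes, listed as markers of neuroblasts of the ventricle wall, 2 were higher (Dlx1, 0.17, FDR 0.0345, and Dlx5, 0.15, FDR 0.0651), with sums of 446 to 491 in WT and 486 to 529 in TG. The Dlx6 probe was not present on all arrays. Which cells of the hippocampus gave the Dlx signals was not tested.

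The genotype itself could not be checked on the targeted gene. The 4 Dclk1 probes on Agilent had log2 ratios of -0.08 to -0.06 and none passed the test (lowest FDR 0.492), and whether they lie in the part that the transgene carries was not determined here. Between 80.2% and 88.5% of spots per array were well above background in both channels.

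On the one-color Applied Biosystems (ABI) platform, the identifiers named 1 member, Sox11, in 5 WT and 5 TG mice. The WT numbers in the ABI labels differ from those on Agilent, where WT2 is absent. Whether equal numbers name the same animal on both platforms was not determined here. After quantile normalization its log2 signal on ABI was 12.44, 12.85, 12.43, 12.51 and 12.40 in WT1 to WT5. In TG1 to TG5 it was 12.12, 12.65, 11.77, 12.55 and 11.56. The TG mice spread more widely, with 3 of the 5 below all WT mice and 2 among them. The study saw unlike signal distributions in batches of ABI arrays run on separate days, and these batches were not modelled here. The difference of TG minus WT was -0.40 ± 0.23 (SE), with an FDR of 0.998 in limma and p = 0.127 in an exact two-sided permutation test. These labels are not touched by the exchange on Agilent.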

How the data were processed

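Per the file headers, the authors scanned the 10 Agilent arrays with Feature Extraction 8.5.1.1 and deposited spot intensities (pixel mean and median of Cy3 and of Cy5) that were not normalized, together with log10 ratios that the scanner software had corrected for background and dye. For ABI, the authors deposited raw signal intensity. R 4.3.3 was used with limma 3.58.1 and statmod 1.5.0.

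Loess within arrays was applied to mean intensities with no correction for background, and spots of a probe were averaged. Log2 ratios were turned to TG over WT and fitted with an intercept (lmFit, eBayes). FDRs were computed after Benjamini and Hochberg across the 41174 probes, with 0.1 as the limit. The value of a mouse was the mean of its Cy3 and Cy5 log2 intensity after loess and Aquantile normalization. ABI intensities were quantile normalized, and 1 value of 0 was treated as missing. The number of arrays limits the precision. The scripts were tested on simulated data.

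By accession 22072 probes were named, 1442 by description, and 17660 had no name. All members were named, then from each list up to 3 genes past the limit with the smallest p, and the 3 genes most correlated with the member probe of smallest p. Members and lists were chosen with earlier results of these data known. On Illumina, 80 columns named by chip and position were not used. The alternatives tried are given at the end. P values of the fit over arrays set the mean log ratio against the variation between arrays. The 2 arrays of a mouse are not independent. The fit with a single value per mouse sets the difference against the variation between mice.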

Additional observations from a re-analysis of the deposited data

Results flagged for a closer look

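Of 50 sets of 5 mice or 10 arrays tested, 3 held a sample far from the others, and chance alone gives about 1 in 20 such sets. For Top2a probe A_51_P252157, whose signal was at the negative controls, array 3 gave a log2 ratio of -0.25 and the nearest array -0.02. The Eomes level in mouse TG3 was 5.89, the next TG mouse being at 5.94. On ABI, the Sox11 level in WT2 was 12.85, above the next WT mouse at 12.51. Without WT2 the difference of TG minus WT was -0.32 with an FDR of 1.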

How the results depend on the processing

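Counts past the limit are given in the order member probes, all probes and list genes (4, 3055 and 20 as reported). They were 1, 1335 and 6 with median centring, 2, 1205 and 10 at an FDR of 0.05, and 0, 24 and 1 with 1 value per mouse, where the list gene was Fabp7. After the exchange of arrays, 1 value per mouse gave 0, 11 and 1. With 1 mean log ratio per WT mouse they were 4, 1774 and 12. With 1 mean log ratio per TG mouse they were 2, 2643 and 17. With WT mouse as a random block, whose consensus correlation was -0.248, they were 6, 5970 and 29. Leaving out an array or a mouse gave 0 to 4, 282 to 3398 and 2 to 25.

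The mouse numbers did not pair WT with TG mice (correlations of -0.22, -0.18, -0.10 and -0.18 for numbers 1, 3, 4 and 5). With these numbers as a replicate block, 1 value per mouse gave 0, 0 and 0, and the Sox11 probe A_52_P608516 was at 0.0187. On ABI, the replicate block left Sox11 at -0.40 (FDR 0.91).

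In the fit over arrays the exchange turns every sign and leaves the FDRs as they were. With 1 value per mouse, where no member probe passed under either assignment, the log2 ratios after the exchange were -0.16 and -0.12 (Igfbpl1), 0.0517 (Pcna), -0.0779, -0.0373, -0.13 and 0.017 (Sox11), -0.14, -0.45 and -0.15 (Ccnd2), -0.0234 and 0.0024 (Top2a), -0.0358 (Eomes), -0.0731 (Sox4), -0.18 (Ccnd1) and 0.14 (Neurod1). With median centring, Pcna was at 0.0467, Top2a probe A_51_P252157 at -0.0741 and Eomes at -0.0359. Top2a probe A_52_P415299 was at 0.0012 with normexp correction, at 0.0117 with median pixels and at 0.0124 with the ratio of the scanner software, and between -0.0237 and 0.0076 with samples left out. Sox11 probe A_52_P608516 was between -0.0313 and 7e-04 with samples left out. None of the values under median centring, the other corrections and left-out samples in this paragraph was past the limit, and the causes were not tested.

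The directions of the 4 member probes past the limit did not change in any fit on the labelled arrays. At the stricter 99th percentile 13 member probes were present, and 12 by the flag of the scanner software. A dye term gave 5 member probes and the scan session (arrays 7 and 8 against the rest) as a block gave 6. Of all probes they gave 3765 and 3121, against 3055 as reported.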
